A study of Mus musculus with 8 samples.

Results

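The H3K27ac regions of mouse primary hepatocytes (MPH) were joined into stitched clusters, runs of neighbouring regions on a chromosome separated by gaps of at most 12.5 kb, and clusters of 6 or more regions were kept whatever the response of their regions to endoplasmic reticulum stress (ERS). The rule gave 678 clusters, which hold 5275 of the 32196 regions listed. MPH came from adult male wild-type C57Bl6 mice, were cultured in serum-free medium, and were exposed for 4 h to 1 µM thapsigargin, which blocks the calcium pump of the endoplasmic reticulum and so induces ERS, or to 0.04% DMSO as vehicle. Each treatment has 3 H3K27ac libraries and 1 input library, 8 libraries in all. The lists divide regions into H3K27ac UP, DOWN and unchanged upon thapsigargin, with positions on mm10 and no signal, count or p-value, so the depth per library is unknown and no value has an error between experiments. Intervals given in brackets are 95% Wilson intervals over regions, clusters or genes, which cover counting error only and take regions of 1 cluster as independent. In such bulk libraries, fewer cells that carry the mark and less of the mark per cell cannot be told apart.

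H3K27ac marks active promoters and enhancers, where transcription factors recruit acetyltransferases such as EP300. Where many such elements lie close together they are often joined into 1 unit, and the units with most signal are called super-enhancers, which tend to lie at genes that set a cell's identity. In hepatocytes these include genes of transcription factors such as HNF4A and FOXA2 and genes of plasma proteins. The clusters described here were defined by the number of regions alone, with no ranking by signal, and are not super-enhancer calls.

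As a check of the cell type, all 10 hepatocyte markers (Alb, Ttr, Apoa1, Apoa2, Hnf4a, Serpina1a, Tat, Cps1, Fga and Trf) have a transcription start site (TSS) in an H3K27ac region, and 6 of them lie in a cluster. None of the 5 markers of macrophages and Kupffer cells, of the 5 of stellate cells and of the 5 of lymphocytes has a TSS in a region. Of the others, 1 of the 5 endothelial markers (Stab2) and 2 of the 5 cholangiocyte markers (Sox9 and Spp1) do, none of these 3 in a cluster. The endothelial marker Lyve1 has its TSS in the span of a cluster, but in no region.

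The sequences below come from 3 clusters picked by their counts of changed regions. These are the cluster with most UP regions, at Rbm47, the cluster with most DOWN regions, at Zbtb16, and the most mixed one, at Nfe2l2. The Rbm47 cluster shares its count of 6 UP regions with those at Ptprj and Rnf11, and 15 of its 22 regions are unchanged. The sequences were read from the GRCm38 reference sequence on the forward strand. Each holds, in capitals, a match of a short motif, with 75 bases on either side, in an UP region for the motifs of AP-1 (TGANTCA) and ATF4/CHOP (TGATGNAA) and in a DOWN region for those of FOXA (TGTTTAC) and HNF4 (CAAAGTCCA). AP-1 and ATF4/CHOP bind in many stress responses, and FOXA and HNF4 factors are liver regulators. A match shows the letters only. The AP-1 window of the Nfe2l2 UP region also holds a FOXA match, left in lower case just before the AP-1 match. The windows overlap no annotated exon: those of the Rbm47 cluster (chr5:66042768-66042924), of the Zbtb16 cluster (chr9:48737106-48737262 and chr9:48819185-48819343) and of the UP region of the Nfe2l2 cluster (chr2:75688951-75689107 and chr2:75685609-75685766) are intronic in these genes, and the last (chr2:75723070-75723226) lies in no protein-coding gene.
Rbm47 cluster, UP region, AP-1: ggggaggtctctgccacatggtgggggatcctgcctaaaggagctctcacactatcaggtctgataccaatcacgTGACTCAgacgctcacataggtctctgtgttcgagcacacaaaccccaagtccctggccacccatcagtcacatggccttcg
Zbtb16 cluster, DOWN region, FOXA: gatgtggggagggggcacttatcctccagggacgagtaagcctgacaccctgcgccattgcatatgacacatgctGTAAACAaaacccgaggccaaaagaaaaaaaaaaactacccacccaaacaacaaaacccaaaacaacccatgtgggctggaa
Zbtb16 cluster, DOWN region, HNF4: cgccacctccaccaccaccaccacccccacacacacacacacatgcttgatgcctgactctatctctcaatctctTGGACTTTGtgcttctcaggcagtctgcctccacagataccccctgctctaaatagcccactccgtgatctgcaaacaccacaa
Nfe2l2 cluster, UP region, AP-1: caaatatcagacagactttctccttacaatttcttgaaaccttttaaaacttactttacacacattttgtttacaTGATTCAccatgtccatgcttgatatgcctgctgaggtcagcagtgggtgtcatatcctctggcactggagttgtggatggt
Nfe2l2 cluster, UP region, ATF4/CHOP: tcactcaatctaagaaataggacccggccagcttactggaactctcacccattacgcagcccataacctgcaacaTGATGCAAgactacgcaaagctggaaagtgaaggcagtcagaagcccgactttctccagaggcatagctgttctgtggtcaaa
Nfe2l2 cluster, DOWN region, FOXA: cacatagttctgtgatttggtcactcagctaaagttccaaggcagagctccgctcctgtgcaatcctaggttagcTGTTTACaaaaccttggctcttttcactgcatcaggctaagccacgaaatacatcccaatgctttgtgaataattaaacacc
The DOWN regions of the Nfe2l2 cluster hold no match of the HNF4 motif.

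Clusters were mostly small. Of the 17523 units left after joining, 10961 were single regions, 421 held 5 regions and 254 held 6, and the median cluster of 6 or more held 7 regions (6 to 22). The median span was 47.8 kb (20.1 to 166 kb), of which regions covered 35.6% (10.6% to 86.5%). The median gap between neighbours in a cluster was 3942 bp (841 to 12498 bp). At the edges of the rule, groups of 5 and of 6 regions had 29.9% and 29.9% changed regions, 287 joined gaps were within 0.5 kb under the limit and 281 gaps that were not joined within 0.5 kb over it.

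Most clusters held both changed and unchanged regions. Of the 5275 regions in clusters, 823 were UP (15.6%, 14.6%–16.6%), against 17.1% of all regions, and 691 were DOWN (13.1%, 12.2%–14%), against 10.5% of all regions. UP or DOWN regions made 28.7% (27.5%–29.9%) together, close to the 27.6% of all regions. The remaining 3761 were unchanged. Outside clusters, 17.4% were UP (17.0%–17.9%) and 9.97% were DOWN (9.62%–10.3%), so that DOWN regions made 45.6% (43.1%–48.2%) of changed regions in clusters and 36.4% (35.3%–37.5%) outside.

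The share of DOWN among changed regions was 32.5% for single regions, 36.2% in pairs, 37.8% in groups of 3, 43.1% in groups of 4 or 5 and 46.1% in clusters of 6. It did not follow the number of regions further: it was 36.8% in clusters of 7, 44.4% in those of 8 or 9, 56.3% in those of 10 to 12 and 47.5% in those of 13 to 22. Among clusters of 6 or more, the intervals overlap except between clusters of 10 to 12 (50.2%–62.3%) and those of 7 (31.5%–42.3%) or of 8 or 9 (39.3%–49.5%).

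By composition, 230 clusters (33.9%, 30.5%–37.6%) held UP and no DOWN regions, 171 (25.2%, 22.1%–28.6%) held DOWN and no UP regions, 206 (30.4%, 27%–33.9%) held both and 71 (10.5%, 8.39%–13%) held unchanged regions only. Clusters with changed regions of 1 direction were thus 401 (59.1%, 55.4%–62.8%). No cluster had every region UP or every region DOWN. The median cluster had 2 changed regions (0 to 9). A single changed region gave the direction in 92 of the 230 UP clusters and in 67 of the 171 DOWN clusters, and at least 50% of regions were changed in 39 and 29 of them. A cluster with more regions has more chances to hold both classes: 1.24% of pairs were mixed, 8.88% of groups of 4, 23.2% of clusters of 6, 22.1% of those of 7, 29.6% of those of 8 or 9, 55.6% of those of 10 to 12 and 70.0% of those of 13 to 22.

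**Figure D1:**
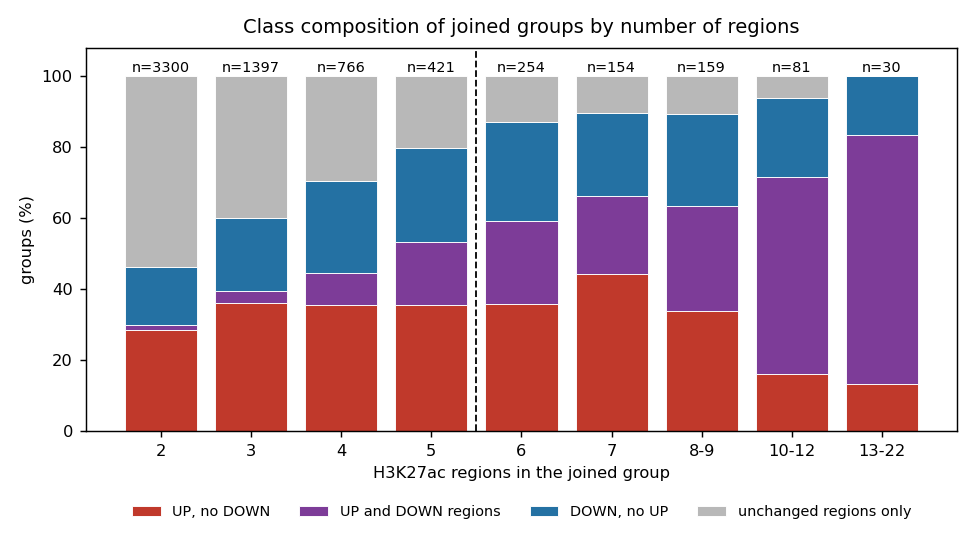
Class composition of joined groups of H3K27ac regions by the number of regions in the group (x axis), as a share of groups (y axis, %), with the number of groups above each bar and the clusters of 6 or more to the right of the dashed line. Groups with both UP and DOWN regions go from 1.24% of pairs to 70.0% of the 30 clusters of 13 to 22 regions, and groups with unchanged regions only go from 53.8% to 0.

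Among the 206 mixed clusters, 73 held 1 UP and 1 DOWN region, 63 held more UP, 54 more DOWN and 89 equal numbers, and 32 held 2 or more of each. Of the 133 mixed clusters with 3 or more changed regions, 93 changed class once along the chromosome, 30 changed 2 times and 10 changed 3 or more times. In 68 of them exactly 3 regions were changed, and these can change class only 1 or 2 times. Among the 4597 pairs of neighbours in clusters, 190 were UP beside UP, 151 DOWN beside DOWN and 77 UP beside DOWN. The counts expected from a random order were not computed, so neither set of counts shows whether the classes lie apart. In 33 mixed clusters every UP region held a TSS and no DOWN region did, in 18 it was the reverse, in 66 no changed region held a TSS and in 12 all did.

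**Figure D2:**
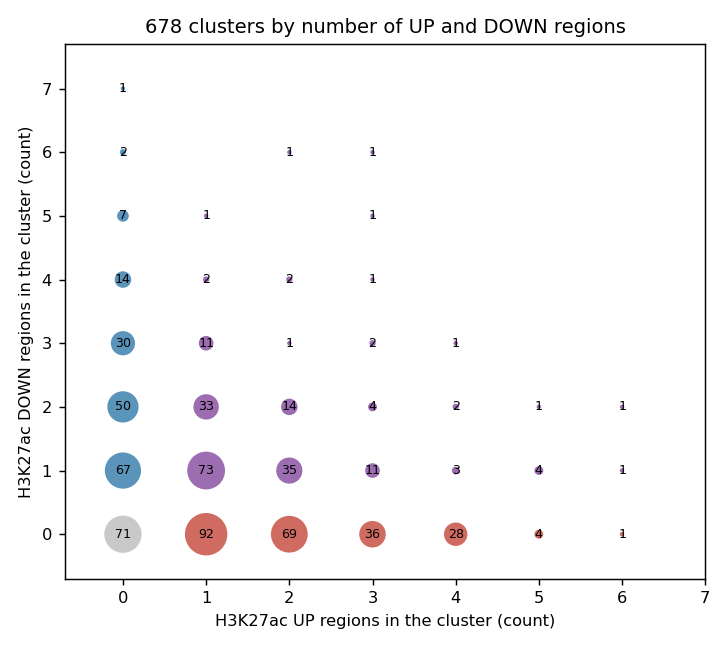
Number of UP (x axis) and DOWN (y axis) regions in each of the 678 clusters, with the number of clusters written on each point and given by its area. Red, blue, purple and grey points are clusters with UP only, DOWN only, both and unchanged regions only. Most clusters lie within 2 regions of the origin, and the single points at 7 DOWN with 0 UP regions and at 6 UP with 0 DOWN regions are the clusters at Zbtb16 and Rnf11.

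Regions in clusters were wider than those outside, and a wider region holds more of the bins that the authors tested. UP, DOWN and unchanged regions of clusters had median widths of 2378, 3348 and 1386 bp, against 1547, 2040 and 1126 bp outside. In base pairs, DOWN regions took 22.8% and UP regions 21.7% of the 13745342 bp that regions cover in clusters, against 16.6% and 21.1% outside. Regions of 10 kb or more numbered 131 in 101 of the clusters (44 UP, 50 DOWN and 37 unchanged), 2.48% of the regions in clusters. Outside they numbered 161 (49 UP, 67 DOWN and 45 unchanged), 0.598% of the regions there. The widest region of a cluster was UP in 171 and DOWN in 171 of the 678 clusters (25.2%, 22.1%–28.6% each), against 14.2% (13.2%–15.2%) and 11.3% (10.4%–12.3%) of the other regions of clusters.

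Within classes of width, the intervals of the DOWN share in clusters overlapped those outside. The share was 9.32% (7.96%–10.9%) against 9.17% from 1 to 2 kb, 15.9% (14%–18%) against 15.9% from 2 to 4 kb and 30.3% (27.5%–33.3%) against 27.2% (25.3%–29.2%) from 4 kb. Below 1 kb it was 3.32% (2.52%–4.37%) against 4.25% (3.88%–4.67%). The UP share in clusters was below that outside in each class: 7.67% (6.42%–9.14%) against 11.2% (10.6%–11.8%), 15.5% (13.8%–17.4%) against 19.8% (19.0%–20.6%), 19.3% (17.2%–21.5%) against 21.9% (20.8%–23.0%) and 22.9% (20.4%–25.7%) against 25.5% (23.7%–27.5%) in order of width, with intervals that overlap in the last 2 classes only.

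Regions with and without a TSS differed in this. A TSS lay in 24.8% (23.6%–26.0%) of the regions in clusters and in 34.7% (34.1%–35.2%) of those outside. At a TSS, 16.1% (14.2%–18.2%) of regions in clusters were DOWN against 7.69% (7.17%–8.25%) outside, and 21.1% (19.0%–23.4%) were UP against 19.0% (18.2%–19.8%). With no TSS, 12.1% (11.1%–13.2%) were DOWN against 11.2% (10.7%–11.7%), and 13.8% (12.7%–14.9%) were UP against 16.6% (16%–17.1%). With width and TSS combined, the DOWN share at a TSS was 29.9% (26.0%–34.2%) in clusters and 25.5% (23.1%–28.0%) outside from 4 kb, 11.9% (9.08%–15.4%) and 9.82% (8.71%–11.1%) from 2 to 4 kb and 6.51% (4.2%–9.94%) and 3.91% (3.31%–4.62%) from 1 to 2 kb, and 1.43% (0.393%–5.06%) and 1.64% (1.19%–2.25%) below 1 kb, with intervals that overlap each time. Regions with no TSS were listed as changed in a smaller share in clusters than outside in 3 of the 4 width classes: 10.9% (9.38%–12.7%) against 16.4% (15.6%–17.2%) below 1 kb, 23.9% (21.6%–26.3%) against 32.6% (31.5%–33.8%) from 1 to 2 kb and 36.0% (32.9%–39.2%) against 41.7% (39.9%–43.6%) from 2 to 4 kb, but 53.3% (48.8%–57.7%) against 52.9% (49.4%–56.4%) from 4 kb.

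**Figure D3:**
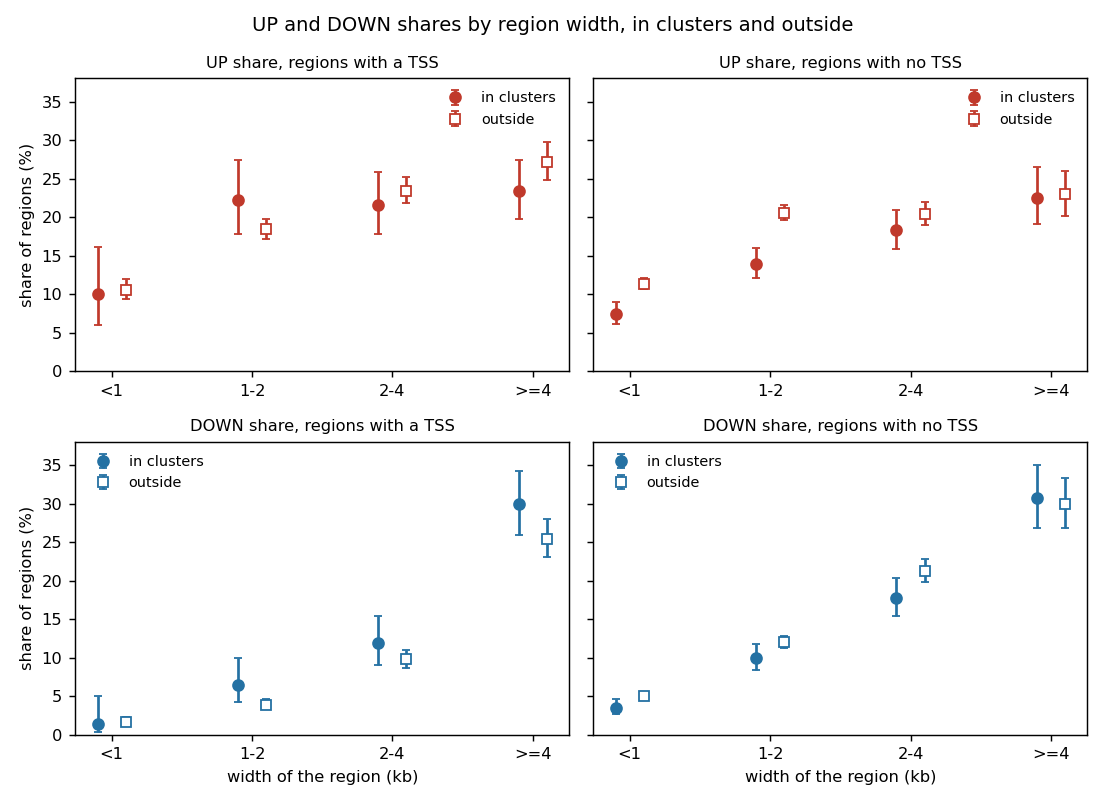
Share of regions (y axis, %) that are UP (top, red) or DOWN (bottom, blue) by region width (x axis, kb), for regions with a TSS (left) and with none (right), in clusters (filled) and outside (open), with 95% Wilson intervals. Both shares are higher from 4 kb than below 1 kb in each of the 4 sets, the DOWN share by set from 1.43%–5.01% to 25.5%–30.7% and the UP share from 7.42%–11.4% to 22.5%–27.2%, and the largest gap between filled and open points is the UP share of regions of 1 to 2 kb with no TSS (13.9% against 20.6%).

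Clusters lay at few genes each. The spans hold a TSS of 1104 protein-coding genes: 86 clusters (12.7%, 10.4%–15.4%) hold none, 366 (54.0%, 50.2%–57.7%) hold 1, 159 hold 2 or 3 and 67 hold 4 or more, up to 14. In 304 clusters the body of 1 protein-coding gene covers at least 80% of the span, and 40 clusters overlap no protein-coding gene body. Regions with no TSS lay in a gene body in 71.2% (69.7%–72.6%) of cases in clusters and in 58.5% (57.8%–59.2%) outside. Of the UP clusters with a region at a protein-coding TSS, 106 of 198 had an UP region there and the others only elsewhere, and of such DOWN clusters 76 of 133 had a DOWN region there.

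The most numerous regions lay at Rbm47, which encodes an RNA-binding protein (chr5:66004576-66152082). Its cluster of 22 regions spans 147507 bp, 91.9% of it in the gene body, and holds 6 UP regions, 1 DOWN region at its far end and 15 unchanged regions, among them the widest (20792 bp). An Rbm47 TSS lies in 4 regions: the DOWN one, an UP one and, for the rest, unchanged ones, with the widest. The cluster at Nfia, a nuclear factor I gene (chr4:97746072-97886301), also has 22 regions, of which 3 are DOWN and none UP. At Dusp16, a phosphatase gene of the MAP kinase pathway, with Crebl2 and Borcs5 (chr6:134699144-134850481), 5 of 21 regions are DOWN and 3 UP, in interleaved order. The regions at the amino acid transporter gene Slc16a10 (chr10:40061725-40189642) include 3 UP and 1 DOWN of 18, and those at Rxra, the partner of many nuclear receptors (chr2:27671331-27759451), 1 UP and 1 DOWN of 18. Each of these 5 clusters was therefore changed in a minority of its regions.

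The widest span, 166145 bp, belongs to the cluster at Zbtb16, which encodes a zinc-finger transcription factor (chr9:48694722-48860866). It also has most DOWN regions: 7 of 14, with the one at the Zbtb16 TSS, none UP, and 75110 of the 85144 bp covered. Its widest region, chr9:48720095-48759150, is DOWN over 39056 bp. The FOXA match printed above is 1 of 6 in that region. FOXA matches numbered 0.179 per kb over DOWN regions with no TSS in clusters and 0.195 per kb over all regions with no TSS. A count of 6 in 39056 bp is therefore not high for the length. The cluster in Sept9, a septin gene (chr11:117199668-117344757), is the fourth by span with 145090 bp and has 2 DOWN regions of 17.

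The most UP regions in a cluster, 6, were found at Rbm47, Ptprj and Rnf11. At Rnf11, a RING-finger protein gene (chr4:109457063-109485796), 6 of 7 regions are UP, both regions with a Rnf11 TSS included, and UP regions make 21407 of the 22177 bp covered. At the calcium-binding protein genes S100a10 and S100a11 (chr3:93517005-93602442), 5 of 9 regions are UP in an unbroken run from the S100a10 TSS, and the S100a11 TSS is in an unchanged region. At Ptprj, a receptor tyrosine phosphatase gene (chr2:90475058-90585262), 6 of 13 regions are UP while the region at the TSS is 1 of 2 DOWN regions. At Map3k5, a kinase gene upstream of JNK and p38 (chr10:19926571-20005637), 5 of 10 regions are UP with that at the TSS, and the first is DOWN.

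On the DOWN side, 6 of 8 regions are DOWN at Wwc1, a gene of the Hippo pathway (chr11:35915218-35982897), with the widest (14145 bp) at its TSS. A cluster that overlaps no protein-coding gene (chr8:126804954-126853334) has 6 DOWN of 7 regions. The nearest protein-coding TSS, of Tomm20, is 92506 bp away. At the transglutaminase gene Tgm2 (chr2:158058640-158176982), 6 of 17 regions are DOWN, with the one at the TSS, and 2 are UP. Tgm2 is the gene with a TSS in this span, but the body of Rprd1b covers 62.2% of it.

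The most mixed clusters are those with the largest smaller count of UP and DOWN regions, 3, a value that several clusters share. The one of them with most DOWN regions lies at Nfe2l2, which encodes NRF2, a regulator of the oxidative stress response, and Hnrnpa3 (chr2:75607763-75734848). Of its 14 regions 6 are DOWN and 3 UP. The region at the Nfe2l2 TSS, 10932 bp wide, is DOWN, its neighbour in the gene body, 11498 bp wide, is UP, and the region at the Hnrnpa3 TSS is UP. At Mbnl2, a splicing regulator gene (chr14:120274883-120374130), 4 UP regions, 1 of them at the TSS, come before 3 DOWN regions along the gene. At Bloc1s4 and D5Ertd579e (chr5:36663764-36748826), 3 UP regions lie on one side and 4 DOWN regions on the other of the unchanged region at the D5Ertd579e TSS. These last 2 clusters each change class once.

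The largest clusters with no changed region held 12 regions at Nfib, another nuclear factor I gene (chr4:82433929-82513801), 12 at the heparan sulfate enzyme gene Ndst1 with Rps14 (chr18:60696454-60776212), 11 at Dgat2, a gene of triglyceride synthesis (chr7:99158113-99229988), and 10 inside the polarity gene Pard3 (chr8:127123570-127197145).

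**Figure D4:**
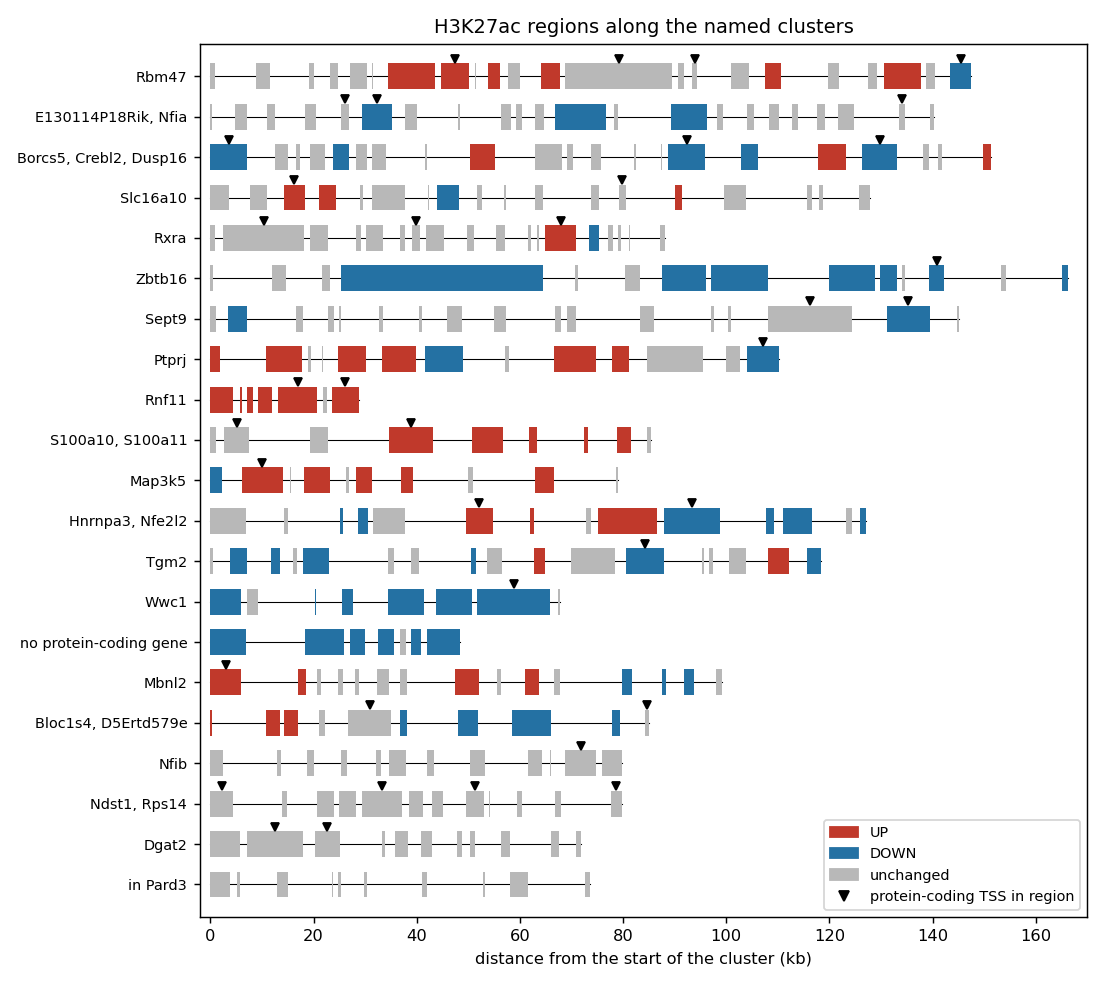
H3K27ac regions along 21 clusters named in the text, drawn to scale from the start of each cluster (x axis, kb), 1 cluster a line. Boxes are regions (red UP, blue DOWN, grey unchanged) and triangles mark regions that hold a protein-coding TSS. The 39056 bp DOWN region of the Zbtb16 cluster is the widest box, UP and DOWN regions lie in separate stretches at Mbnl2 and at Bloc1s4, and they alternate at Dusp16.

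Gene groups were then placed on the clusters, with genes that have a TSS in any H3K27ac region as the background: 1031 of 9805 (10.5%, 9.92%–11.1%) had a TSS in the span of a cluster. LIVER-ID genes and ubiquitous (UBQ) genes are lists of the study, picked for broad H3K4me3 domains specific to liver or shared among tissues, so that both hold wide active regions by choice. Of LIVER-ID genes 131 of 473 (27.7%, 23.9%–31.9%) were in clusters, of UBQ genes 72 of 416 (17.3%, 14%–21.2%) and of all other genes 828 of 8916 (9.29%, 8.70%–9.91%). Of all 1031 genes in clusters, 36.5% were in UP clusters, 22.5% in DOWN clusters, 30.8% in mixed clusters and 10.2% in unchanged ones. Their TSSs were in UP regions for 25.1%, in DOWN regions for 16.2% and in unchanged regions for 68.3%, where a gene with several TSSs can count more than once. LIVER-ID genes of clusters lay in UP clusters (42, 32.1%), DOWN clusters (39, 29.8%), mixed clusters (38, 29.0%) and unchanged ones (12, 9.16%), and their TSSs were in UP regions for 33 (25.2%), DOWN regions for 34 (26.0%) and unchanged regions for 83 (63.4%). The UBQ genes gave 22, 19, 24 and 7 clusters in the same order (30.6%, 26.4%, 33.3% and 9.72%), and TSSs in UP regions for 15 (20.8%), in DOWN regions for 22 (30.6%) and in unchanged regions for 46 (63.9%). Of the symbols of the study's lists, 613 of 621 LIVER-ID and 645 of 657 UBQ symbols matched the annotation. Clusters with UBQ genes include those of Rbm47, Nfia and Rxra. For the largest clusters with LIVER-ID genes beside Foxa2 and Nfe2l2, 4 UP and 1 DOWN of 14 regions are at Vmp1, an autophagy gene, and 2 UP of 14 at the aldehyde reductase gene Akr1a1.

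Among transcription factor genes, those in clusters were 12 of 38 LIVER-ID TFs (31.6%, 19.1%–47.5%) and 12 of 28 genes of a hand-made list of liver transcription factors (42.9%, 26.5%–60.9%). Of the 12 LIVER-ID TFs, 6 are in mixed clusters, 3 in DOWN clusters, 2 in unchanged ones and 1 in an UP cluster, and a TSS lies in an unchanged region for 8, in a DOWN region for 5 and in an UP region for 1, Xbp1. Among all genes in clusters, 30.8% lie in mixed, 22.5% in DOWN, 10.2% in unchanged and 36.5% in UP clusters. The shares with a TSS in an unchanged, a DOWN and an UP region are 68.3%, 16.2% and 25.1%. To set beside these shares, 12 genes are few. At Foxa2, the pioneer factor gene (chr2:147942396-148049165), 2 of 16 regions are DOWN, with that at the TSS, and 1 is UP. At Hnf4a, the nuclear receptor gene at the centre of the hepatocyte network (chr2:163535084-163603125), 5 of 11 regions are DOWN, with that at the TSS, and none is UP. At Nr5a2, a nuclear receptor gene of bile acid synthesis (chr1:136893564-136967423), 4 of 11 are DOWN and 2 UP. Zbtb20, a repressor of the fetal liver program, is the 1 in an UP cluster, with 3 UP of 9 regions and its TSS in an unchanged region. A list of further nuclear receptors, which leaves out Hnf4a and Nr5a2, has 23 genes with a TSS in a region. Of these, 5 (21.7%, 9.66%–41.9%) were in clusters, against 10.5% of all genes: Rxra, Nr0b2, Nr1h4, Rara and Nr1i3. Mixed clusters hold 4 of the 5, against 30.8% of all genes in clusters, and 5 genes are few. At Nr1h4, the bile acid receptor gene FXR, 2 of 8 regions are DOWN and 1 UP.

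Each ER stress gene in a cluster had a TSS in an UP region. Of 36 with a TSS in a region, 8 (22.2%, 11.7%–38.1%) were in clusters, 5 in UP and 3 in mixed clusters, and a TSS lay in an UP region for all 8, in an unchanged region also for 1, Slc3a2, and in a DOWN region for none, while 25.1% of all genes in clusters had a TSS in an UP region. The largest clusters are at Creld2, which acts in protein folding (2 UP of 9 regions), Xbp1, the transcription factor spliced by IRE1 (2 UP and 1 DOWN of 7), Ern1, which encodes IRE1 (2 UP and 1 DOWN of 6), and the amino acid transporter gene Slc3a2 (3 UP of 6). Outside that rule and named after its values were seen, Herpud1, of ER-associated degradation, has an UP region at its TSS and 3 DOWN regions among the other 5, and Hspa5, which encodes the chaperone BiP, has 4 UP regions of 6.

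For early response genes, DOWN was the more frequent class at the TSS. Of 25 genes of a list of AP-1, ATF and early response factors with a TSS in a region, 8 (32%, 17.2%–51.6%) were in clusters, 5 in DOWN and 3 in mixed clusters and none in an UP cluster, and a TSS lay in a DOWN region for 5, in an unchanged region for 3 and in an UP region for 1. The largest of these are at Nfe2l2, described above, Maff, a small MAF gene (2 DOWN of 12 regions, TSS in a DOWN region), Dusp6, a MAP kinase phosphatase gene (1 UP and 1 DOWN of 11, TSS in an unchanged region), and Dusp1, of the same family (4 UP and 1 DOWN of 10, TSSs in UP and unchanged regions). The other genes with a TSS in a DOWN region were Zfp36l1, Btg2 and Junb, named after their values were seen. Of all genes in clusters, 22.5% lay in a DOWN cluster, and a DOWN region held the TSS of 16.2%.

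Genes of liver products were set beside all genes with a TSS in a region, of which 10.5% (9.92%–11.1%) were in clusters. Of 14 apolipoprotein genes 5 (35.7%, 16.3%–61.2%) were in clusters, in 2 clusters: Apoe, Apoc1, Apoc2 and Apoc4 share 1 (chr7:19664453-19717138) with 5 DOWN of 7 regions and all 4 genes' TSSs in DOWN regions, and Apoa2 lies in another with 1 DOWN of 6. These 4 genes count as 1 location. Of 51 genes of plasma carriers, coagulation and complement 11 (21.6%, 12.5%–34.6%) were in 8 clusters. A TSS lay in an unchanged region for 9 of these 11, in a DOWN region for 3 and in an UP region for 0. Among all genes in clusters a TSS lay in an unchanged region for 68.3%, in a DOWN region for 16.2% and in an UP region for 25.1%. At Alb, the albumin gene, 3 of 12 regions are DOWN with the TSS in an unchanged region. The fibrinogen genes Fga, Fgb and Fgg share a cluster with 2 DOWN of 8 regions, the inhibitor heavy chain genes Itih1 and Itih3 one with 1 UP and 1 DOWN of 9, and the cluster of the hepcidin gene Hamp has 3 DOWN of 7. The 1 gene of the list in an UP cluster, named after its values were seen, is the ceruloplasmin gene Cp, with 2 UP of 7. None of 18 serpin genes with a TSS in a region was in a cluster (0 to 17.6%). Of 19 cytochrome P450 genes 2 were (10.5%, 2.94%–31.4%), Cyp2d9 and Cyp2c70. Both have a TSS in a DOWN region, and 2 genes are few to set beside the 16.2% of all genes in clusters. The intervals of the serpin and cytochrome P450 lists include the 10.5% of all genes that were in clusters.

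Of 53 genes of hepatic glucose, lipid and amino acid metabolism, 17 (32.1%, 21.1%–45.5%) were in clusters, 8 of them in UP, 3 in DOWN, 3 in mixed and 3 in unchanged clusters, with TSSs in unchanged regions for 12. Among all genes in clusters, 36.5% lay in UP, 22.5% in DOWN, 30.8% in mixed and 10.2% in unchanged clusters, and 68.3% had a TSS in an unchanged region, against 47.1%, 17.6%, 17.6%, 17.6% and 70.6% of these 17 genes. Among the largest clusters are those of Dgat2, described above, the fatty acid elongase gene Elovl6 (2 UP and 1 DOWN of 11 regions) and Fmo5, a flavin-containing monooxygenase gene (4 DOWN of 9, with the TSS). Of 28 genes of growth factor receptors and insulin signalling 7 (25%, 12.7%–43.4%) were in clusters, 5 in UP and 2 in mixed clusters and none in a DOWN cluster (71.4%, 28.6% and 0 of the 7). At Igf1 4 of 12 regions are UP with the TSSs in unchanged regions, at Pik3r1, a PI3-kinase subunit gene, 1 of 12 is UP, at the insulin receptor gene Insr 1 is UP and 1 DOWN of 10, and at Egfr 3 are UP and 2, with the TSS, DOWN of 9. The lists are short, and their intervals are wide.

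Motifs were counted in the central 300 bp of regions of at least that width with no TSS, on both strands. The AP-1 motif matched in 24.9% (21.4%–28.7%) of 538 UP windows and 11.5% (8.97%–14.7%) of 477 DOWN windows in clusters, against 37.0% (35.2%–38.8%) and 15.5% (13.9%–17.2%) outside and 24.0% of all such windows. ATF4/CHOP matched in 9.67% (7.45%–12.5%) of UP and 4.61% (3.07%–6.88%) of DOWN windows in clusters, against 14% (12.8%–15.4%) and 4.94% (4.06%–6.0%) outside and 6.92% of all. For both, UP windows in clusters matched in a smaller share than UP windows outside, with intervals that do not overlap. The lower AP-1 share was not particular to UP windows. Unchanged windows matched AP-1 in 18.2% of cases in clusters against 24.2% outside, also with intervals apart, while the intervals of DOWN windows overlap. Unchanged windows matched ATF4/CHOP in 5.11% and 5.94%, with intervals that overlap. Regions in clusters are wider, so the window covers a smaller part of them. Whether width accounts for the lower shares was not tested. Within classes of width the AP-1 shares of UP windows in and outside clusters were 27.8% (19.6%–37.8%) and 34.3% (31.0%–37.8%) below 1 kb, 35.8% (29.1%–43.2%) and 48.6% (45.9%–51.4%) from 1 to 2 kb, 19.4% and 20.6% from 2 to 4 kb and 13.6% and 16.8% from 4 kb, with intervals apart in the class from 1 to 2 kb only. For ATF4/CHOP the shares were 13.3% (7.79%–21.9%) and 13.6% (11.3%–16.2%), 12.1% (8.08%–17.8%) and 16.7% (14.7%–18.8%), 9.09% (5.59%–14.5%) and 10.2% (7.97%–13%) and 3.64% (1.42%–8.98%) and 9.50% (6.01%–14.7%) in order of width, with intervals that overlap in every class.

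**Figure D5:**
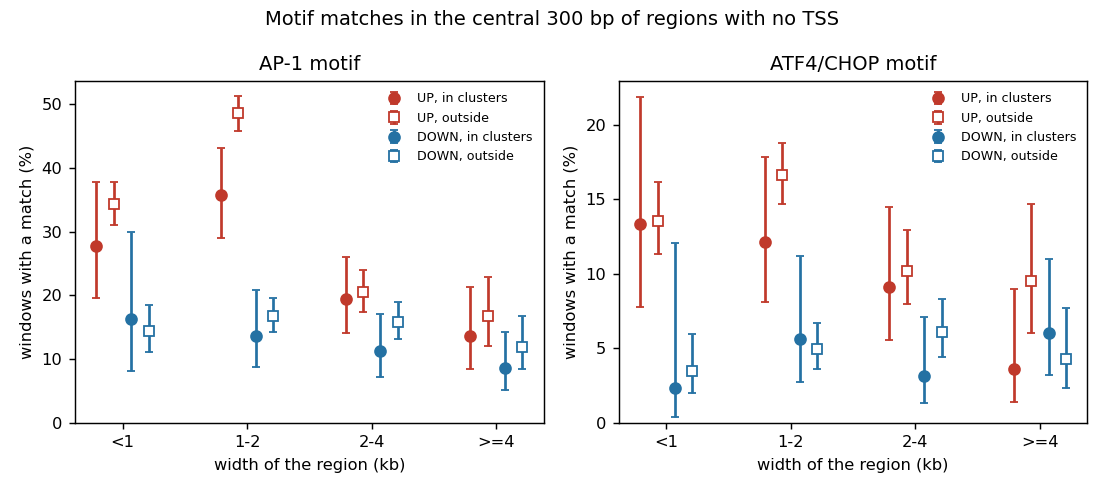
Share of central 300 bp windows (y axis, %) with a match of the AP-1 motif (left) or the ATF4/CHOP motif (right) by region width (x axis, kb), for UP (red) and DOWN (blue) regions with no TSS, in clusters (filled) and outside (open), with 95% Wilson intervals. AP-1 matches are most frequent in UP regions of 1 to 2 kb (35.8% in clusters, 48.6% outside) and are 13.6% and 16.8% in the widest.

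For the HNF4 and FOXA motifs the intervals overlap between UP and DOWN windows in clusters. HNF4 matched in 1.89% (0.996%–3.55%) of DOWN and 0.743% (0.289%–1.90%) of UP windows, against 1.45% of all windows, and FOXA in 5.24% (3.57%–7.62%) and 4.09% (2.72%–6.11%), against 6.68% of all. The other 6 motifs searched were CEBP (TTGCNNAA), with 14.9% of DOWN and 13% of UP windows in clusters against 15.5% of all, HNF1, with 0.629% and 0.186% against 0.449%, the D-box (TTANGTAA), with 2.10% and 3.16% against 3.5%, NRF2/MAF (TGACNNNGC), with 13% and 14.7% against 15.4%, UPRE (TGACGTGG), with 0.210% and 0.743% against 0.364%, and ERSE, with no match in either class and 0.0299% of all. AP-1 and UPRE matches can overlap NRF2/MAF matches.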

How the data were processed

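Chromatin of MPH was immunoprecipitated with an H3K27ac antibody. Per the labels, reads were aligned with Bowtie and peaks called with MACS2 (mm10). The authors called broad peaks on pooled libraries and compared treatments over bins with csaw, pairing libraries by experiment. Peaks with an FDR up to 0.05 were listed as UP or DOWN where their ratio of UP bins to DOWN bins passed a limit. Those with a higher FDR were listed as unchanged. By these rules a peak with an FDR up to 0.05 and a ratio between the limits is in no list. Joined runs and shares leave such peaks out, and their number is not known. The 3 deposited lists give start and end positions in base pairs, with no signal or score. From them, regions were joined (gaps up to 12.5 kb, 6 or more regions), and TSSs and gene bodies were taken from GENCODE release M21, with coordinates that fit the GRCm38 sequence. LIVER-ID and UBQ lists are the study's, and the other lists and motifs were made by hand. The clusters, lists and motifs were chosen with earlier results of these data known. Clusters named are those with most regions, widest span, most UP, most DOWN, most mixed and most regions with none changed, and at most 4 per gene list by number of regions, and 2 of the clusters that this rule gives are not reported here. Since regions of 1 cluster are not independent and no library has a value, shares have 95% Wilson intervals and no test was run. Joining, location and motif search were tested on simulated data and, for joining, against bedtools 2.31.1. Python 3.11.15, numpy 2.4.6, pandas 2.3.3 and pysam 0.24.0 were used.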

Additional observations from a re-analysis of the deposited data

How the results depend on the processing

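No paired analysis was possible because the lists hold no value per library, and for the same reason no library could be left out. Of 118 recomputed values, 51 were classed as the same, 66 moved and 1 changed sign. The same meant within the interval of the value given above or, for counts, within 1.5 times it. For 8 log2 ratios of DOWN to UP windows it meant only that the sign was kept, whatever the size. The HNF4 ratio, 1 of these, went from 1.34 to 0.151 for matches per kb over whole regions. With gaps of 5 kb or 25 kb there were 125 or 1327 clusters, holding 2.68% or 37.3% of regions. Their composition was 13.6% or 8.36% unchanged only, with 14.4% DOWN regions for 5 kb, and with 54.8% of 1 direction and 36.9% mixed for 25 kb. With no protein-coding TSS were 21.6% or 7.31%, and genes per cluster went from 1.64 to 2.56 with 25 kb. In clusters lay 5.29% or 55.2% of LIVER-ID genes, 5.05% or 39.9% of UBQ genes, 7.89% or 55.3% of LIVER-ID TFs and 1.01% or 28.3% of other genes. The LIVER-ID share was above that of other genes under each. With at least 5, 8 or 10 regions there were 1099, 270 or 111 clusters holding 22.9%, 8.30% or 4.15% of regions. Mixed clusters were 25.6%, 41.9% or 59.5% and unchanged ones 14.2%, 8.15% or 4.50%. For 8 or 10 regions, 50% or 36.0% were of 1 direction with 14.4% or 13.8% UP regions, and 15.6% of regions were DOWN for 10. With regions of at least 1000 bp, 231 clusters held 8.06% of regions, 17.5% of them UP and 17.8% DOWN, with 53.2% of clusters of 1 direction, 39.0% mixed and 7.79% unchanged. With regions without a TSS, 253 clusters held 8.70%, 13.4% of them UP, with 23.3% of clusters mixed and 15.4% unchanged. By base pairs UP and DOWN took 21.7% and 22.8%. By width, from narrow to wide, UP took 7.67%, 19.3% and 22.9% beside the class from 1 to 2 kb, and DOWN 3.32%, 9.32%, 15.9% and 30.3%. At a TSS the shares were 21.1% UP and 16.1% DOWN, and without one 13.8% and 12.1%. Clusters with no protein-coding TSS were 16.2% where the TSS had to lie in a region and 5.90% where an overlapping gene body counted. Of all annotated other genes 4.31% were in clusters. With TSS regions included, AP-1 matched in 20.6% of UP windows. The log2 ratio of DOWN to UP windows for NRF2/MAF went from -0.18 to 0.0644 for matches per kb over whole regions. The cause of these shifts was not tested, other than that gap, number and width settings change which regions are joined. Classes of width with TSS, and of width for motifs, were added after seeing the data.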

Other observations

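Clusters were spread unevenly over chromosomes. The share of a chromosome's regions that lie in clusters was 22.2% on chromosome 8, 20.7% on chromosome 6 and 20% on chromosome 19, and 10.5% on chromosome 12 and 4.49% on chromosome X, where the 4 clusters hold 6 UP regions and no DOWN region. The clusters on chromosome X hold only 32 regions. On chromosome 8 the 48 clusters hold 61 DOWN and 37 UP regions, and on chromosome 10 the 37 clusters hold 32 DOWN and 55 UP regions. All clusters together hold 691 DOWN and 823 UP regions. These counts were not set beside those of all regions of each chromosome. The 7 regions on chromosome Y are in no cluster.

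By position within a cluster, the first and last regions of clusters were UP in 17.6% (15.6%–19.7%) and DOWN in 12.6% (10.9%–14.5%) of 1356 cases, and inner regions in 14.9% (13.8%–16.1%) and 13.3% (12.2%–14.4%) of 3919. Regions with no TSS had a median GC content of 46.2% in clusters and 45.3% outside, with 44.9% for UP and 46.3% for DOWN regions in clusters.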
